A study of Ovis aries with 2 samples.

Results

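The dermal papilla cells low in FGF7 and EDN3 were 853 of the 14037 cells of the series, 444 of 6452 in the straight wool library and 409 of 7585 in the curly wool library. They were chosen by the measured levels of 7 genes and of a panel of 6 endothelial genes, so these levels are given here as a description. A level in 1 cell is given in UMIs per 10000 UMIs of that cell (a UMI marks 1 captured RNA molecule). A cell had to hold at least 20 for CRABP1, APOD and RSPO3 together, fewer than 5 for LUM, and a UMI of fewer than 3 of PECAM1, CDH5, CLDN5, EMCN, EGFL7 and KDR. These conditions are called the dermal papilla gate. Gate cells with a sum of FGF7, EDN3 and DPEP1 under 5 are called low cells, and the 639 straight and 219 curly gate cells at 5 or more are called high cells.

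Skin from the body side of Hu sheep lambs, sampled 3 days after birth, was compared between straight wool and curly wool, which the labels call waved wool. For each wool type the skin of 3 lambs was pooled, cells released from isolated follicles were combined with cells from intact skin, and the mixture gave 1 library on the 10× Genomics platform. The labels name no treatment, and give the same breed, age and body site for both libraries. With 1 pooled library per wool type there was no spread between lambs, so no test was made and each difference below compares these 2 libraries, not the wool types.

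The dermal papilla is a small cluster of mesenchymal cells at the base of the hair follicle, enclosed by the epithelial cells of the hair bulb. It sends growth factors, Wnt modulators and BMP inhibitors to the matrix cells above it, and it is known for setting the growth phase and the size of the hair. FGF7 is a fibroblast growth factor that acts on epithelial cells, EDN3 is an endothelin ligand for pigment cell precursors, and DPEP1 is a membrane dipeptidase. CRABP1 binds retinoic acid inside the cell, APOD is a secreted lipid carrier, and RSPO3 is an R-spondin that amplifies Wnt signals.

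The low cells were shallower than the high cells. Their median was 4719.5 UMIs and 1542 genes per cell in the straight library and 4169 UMIs and 1435 genes in the curly library. The high cells had medians of 7767 and 5586 UMIs, and the libraries as a whole 7373.5 and 7495. Summed over the low cells, 2457173 and 1858566 UMIs stood behind the values below, so that a gene without a UMI there could still have 3 counts, a level of 1.22 CPM in the straight and 1.61 CPM in the curly library (CPM are UMIs of a gene per 1000000 UMIs of the group). All ranges in parentheses are exact 95% intervals, and they cover counting error only. The libraries shared 70 cell barcodes.

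The gate values describe the cells that the rule kept. CRABP1, APOD and RSPO3 chose these cells, so the values largely restate the rule and are no support for the kind of cell. The gate sum of the low cells had a median of 63.1 UMIs per 10000 in straight and 92.1 in curly cells, against 52.2 and 90.03 in the high cells. CRABP1 alone reached 20 in 65.1% of straight and 85.3% of curly low cells, APOD in 49.8% and 40.6%, and RSPO3 in 21.4% and 19.8%. A UMI of CRABP1 was present in 95.9% and 96.6% of low cells, and a UMI of RSPO3 in 80.6% and 76.8%. In endothelial cells, defined by a UMI of at least 3 of the 6 panel genes and with medians of 6611 and 5524 UMIs, the shares were 12.2% and 7.21% for CRABP1 and 3.21% and 3.6% for RSPO3. These shares serve as a background, free RNA in the droplets included. Whether endothelial cells express either gene themselves was not tested.

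The label markers were compared with the levels in other cells. Of the 5 label markers CRABP1, APOD, IGFBP3, SOX18 and SERPINF1, 49.3% of straight and 40.1% of curly low cells held a UMI of all 5, and 30.6% and 39.9% of 4. CRABP1 and APOD are gate genes as well, so their presence follows largely from the rule, and SERPINF1, IGFBP3 and SOX18 are the markers it did not use. IGFBP3, which binds insulin-like growth factors, stood at 5893 CPM (5797 to 5989.7) and 5377 CPM (5272 to 5484). SERPINF1, a secreted inhibitor of vessel growth, stood at 716 CPM (683 to 750.1) and 1174 CPM (1125 to 1224), against 9.36 and 1.29 CPM in endothelial cells. SOX18, a transcription factor of the papilla and of vessels, separates the low cells from endothelial cells less well, with 576 and 329 CPM in low cells and 401 and 342 CPM in endothelial cells. The 5 markers together summed to 12547 and 15496 CPM in low, 8765 and 17516 CPM in high and 979 and 1447 CPM in endothelial cells. In cells with LUM at 5 or more they summed to 16683 and 10196 CPM. The set thus does not mark the low cells alone.

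Other papilla genes were also found. WIF1, a Wnt inhibitor, INHBA, a subunit of activin, IGF1, a growth factor for the matrix, and TRPS1, a transcription factor, had 1463, 521, 379 and 135 CPM in straight low cells. The curly values were 568, 699, 513 and 146 CPM. Classical markers were near the limit of detection, with CORIN, a protease of the papilla, at 2.85 and 5.38 CPM, NOG, a BMP inhibitor, at 2.03 and 1.61 CPM and TNMD without a UMI in the low cells of either library. SOX2, a papilla transcription factor, was at 2.85 and 3.23 CPM in low cells and 18.2 and 10.2 CPM in high cells.

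The 8 endothelial genes summed to 4.07 and 6.99 CPM in low cells against 3299 and 3675 CPM in endothelial cells. The rule itself kept the 6 panel genes among them low. CDH5 and TIE1 had no UMI in straight low cells, and CDH5 and KDR had none in curly low cells. The 6 pericyte genes in the table summed to 47.6 and 86.6 CPM, with RGS5 and KCNJ8 at 0 in curly low cells, and the 5 melanocyte genes to 6.51 and 15.1 CPM, with DCT and MLANA at 0 in both libraries. The 6 Schwann cell genes summed to 37 and 97.4 CPM, with SOX10 and CDH19 among those at 0 in straight low cells, and the 7 cell cycle genes to 199 and 121 CPM. Markers of fibroblasts and keratinocytes were not low. The 14 fibroblast genes, collagens I and III among them, summed to 4564 and 3599.6 CPM in low, 3505 and 3157 CPM in high cells and 12344 and 24773 CPM in cells at or above the LUM limit, with PI16 at 0 in straight low cells. The 13 keratinocyte genes summed to 4364 and 5638 CPM in low cells, 2379 and 4299 CPM in high cells, 4396 and 5219 CPM in endothelial cells and 35470.5 and 30428 CPM outside the gate, and 0 of them were without a UMI in low cells. Low and endothelial cells thus held a like level of keratinocyte RNA.

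**Figure D1:**
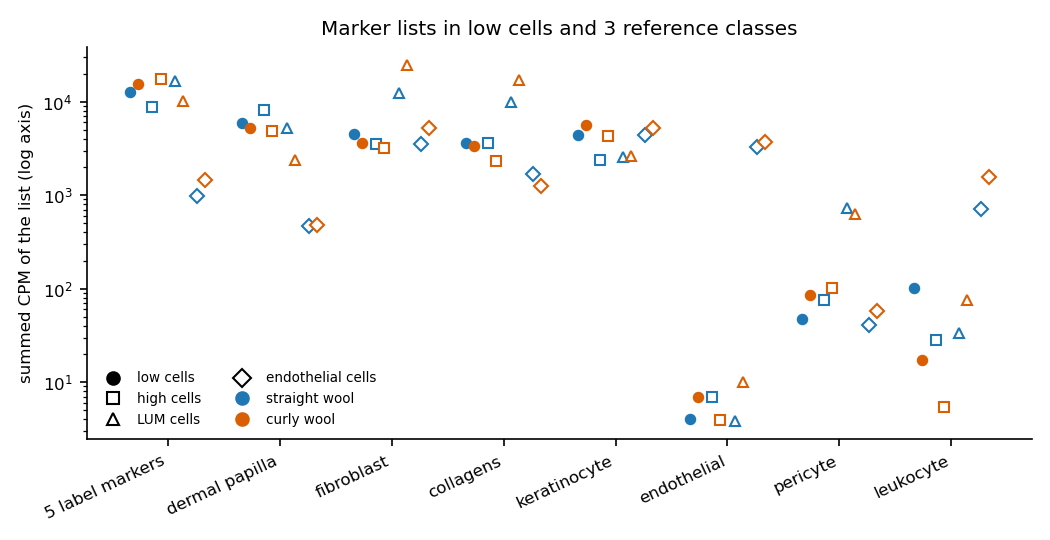
Summed level of marker gene lists in CPM on a log axis for low cells, high cells, cells with LUM at or above the limit and endothelial cells, with 1 point per library and straight wool apart from curly wool. The endothelial genes lie at 4.07 and 6.99 CPM in low cells and at 3299 and 3675 CPM in endothelial cells, while the keratinocyte genes lie above 2000 CPM in all 4 groups.

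The low cells were not of 1 kind. At least 3 of the mesenchymal genes COL1A1, COL1A2, COL3A1, COL6A1, COL6A2 and PCOLCE had a UMI in 400 straight cells (90.1%, 86.9 to 92.7) and 361 curly cells (88.3%, 84.7 to 91.2), called collagen-positive. The other 44 straight and 48 curly low cells are called collagen-poor, with medians of 4589.5 and 1457 UMIs. Their share was highest at the low end of the gate. Collagen-positive cells were 64.3% of straight and 55.6% of curly low cells at a gate sum from 20 to 30, and 98.9% and 94.8% at 100 or more. A UMI of at least 3 of the epithelial genes EPCAM, CDH1, CDH3, DSP, DSG3 and PERP was present in 8.33% and 7.33% of low cells, 3.13% and 5.02% of high cells and 57.4% and 61.5% of cells outside the gate. Within the low cells this share was 32.1% and 48.1% at a gate sum from 20 to 30 and 0% (0 of 89 cells, upper limit 4.06%) and 2.31% at 100 or more.

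In the collagen-poor cells RSPO3 was lower than in the other low cells, while some other genes were high. CRABP1 was still at 3237 and 3153 CPM, but RSPO3 was at 165 and 520.5 CPM against 1158 and 1103 CPM in collagen-positive low cells. DCN, the matrix proteoglycan decorin, reached 7191 CPM (6928 to 7461) in the straight collagen-poor cells against 511 CPM (481 to 543) in the collagen-positive ones. FABP7, a fatty acid binding protein, was at 2027 and 31.5 CPM in these groups of the straight library, and the homeobox gene MSX1 at 409 and 11.6 CPM. The authors of the study list MSX1 and DCN among the markers of their hair matrix cluster. A UMI of at least 3 of the epithelial genes was present in 36.4% of straight and 16.7% of curly collagen-poor cells. In collagen-positive low cells this share was 5.25% and 6.09%. What kind of cell the collagen-poor cells are was not tested. Values without the collagen-poor cells are given below beside several named genes that then came short of 2-fold.

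Low cells made up 41.0% (38.0 to 44.0) of the gate cells in the straight library and 65.1% (61.3 to 68.9) in the curly library. Among cells with at least 4000 UMIs the shares were 31.5% (28.5 to 34.7) and 57.7% (52.7 to 62.5). Of all cells, low cells were 6.88% (6.28 to 7.53) of the straight and 5.39% (4.90 to 5.93) of the curly library, and high cells 9.90% (9.19 to 10.7) and 2.89% (2.52 to 3.29). The curly library thus held the larger share of low cells within the gate and fewer gate cells in all. How the suspensions were mixed may differ between the pools and was not tested. The limit of 5 cut through a range without a gap, since the nearest cells lay at 5.00 and 4.97 inside and at 5.08 and 5.04 outside. A sum of 0 was found in 254 straight gate cells (23.5%) and 281 curly gate cells (44.7%). Sums from 2.5 to 5 were found in 122 and 61 cells, and sums from 5 to 10 in 161 and 91 cells.

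**Figure D2:**
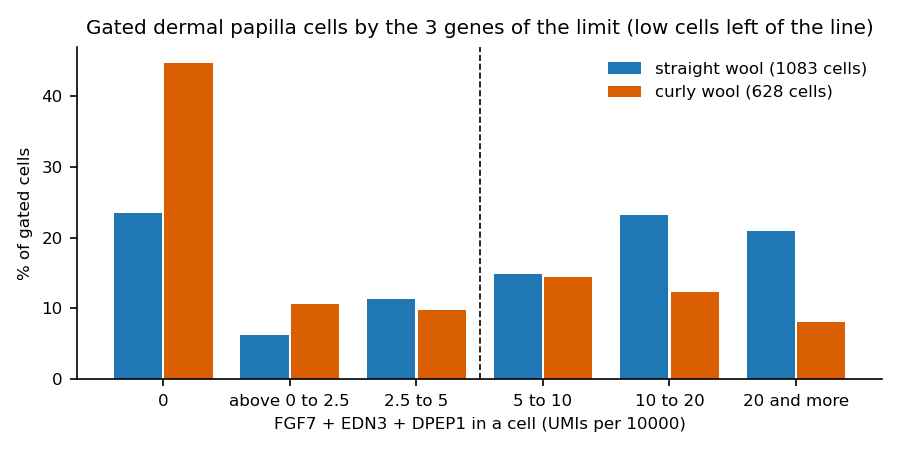
Percent of the cells of the dermal papilla gate by their sum of FGF7, EDN3 and DPEP1 in UMIs per 10000, as bars for straight and curly wool side by side, with a dashed line at the limit of 5. Cells with a sum of 0 are 23.5% of the straight and 44.7% of the curly gate cells, and the last 2 bins, at 10 or more, together hold 44.1% and 20.4%.

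Low cells were then compared with the high cells of the same library, to ask which other papilla genes go with the FGF7, EDN3 and DPEP1 level. For 3058 genes with at least 100 UMIs in the low and high cells of each library together, the level in low cells was set over the level in high cells. A gene counts as different here if it was at least 2-fold higher, or at least 2-fold lower, in both libraries. Of the 3058 genes, 41 were higher (1.34%) and 26 were lower (0.85%) in low cells. Among collagen-positive cells alone 32 and 16 of these also passed. The 26 and their share include FGF7, EDN3 and DPEP1, which are lower by the rule. The median log2 ratio over all genes was 0.03 in straight and 0.08 in curly cells. Summed keratinocyte genes, which were 4364 against 2379 CPM in straight and 5638 against 4299 CPM in curly cells, and depth moved with this comparison, and their part in it was not tested.

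Of 8 genes compared from a list of other signals, 1 was higher and 4 were lower in low cells, EDN3 and DPEP1 among the latter by the rule. The chemokines in this list went in opposite directions. CXCL14, a chemokine of epithelia and papilla, was at 1765 CPM (1713 to 1818) in straight and 3083 CPM (3004 to 3164) in curly low cells, and at 169.9 CPM (159 to 182) and 354 CPM (322 to 388) in high cells. The low cells of both libraries lay above the high cells of both, by 10.4 and 8.72 times. A UMI of CXCL14 was found in 73.9% and 77% of low cells, in 34.9% and 28.3% of high cells and in 34.6% and 18% of endothelial cells, so that the share in straight high cells was close to this background. With every cell thinned to 2000 UMIs, which left 410 and 359 low cells, the shares were 59.8% and 69.9% of low and 14% and 18.6% of high cells. CXCL12, the ligand of CXCR4, was lower in low cells, at 33.8 CPM (26.9 to 41.9) and 14.5 CPM (9.57 to 21.1) against 184 CPM (172 to 196) and 146 CPM (126 to 168). CXCR4 itself was higher in low cells, at 91.2 and 121 against 23.2 and 37.6 CPM, a log2 ratio of 1.97 (1.65 to 2.31) and 1.68 (1.22 to 2.16). With a limit of 2 in place of 5 its ratio in curly cells was 0.64, so that it no longer passed.

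Among the growth factors, FGF7 and EDN3 were lower by the rule. FGF7 was at 39.5 and 31.2 CPM in low and 1085 and 779.6 CPM in high cells, and EDN3 at 40.3 and 25.8 against 518 and 457 CPM. DPEP1 was at 61.9 and 40.4 against 298 and 260.4 CPM. These 3 values only restate the choice of cells. FGFR1, a receptor for FGFs, was the other gene of its list that could be compared, and was at 126 and 113 against 251 and 194 CPM, short of 2-fold lower. Of the 5 insulin-like growth factor genes compared, 1 was lower and 0 were higher. IGFBP5, a binding protein of these factors, was at 62.7 CPM (53.2 to 73.4) and 66.7 CPM (55.5 to 79.5) in low cells and 308 CPM (293 to 324) and 336 CPM (305 to 369.8) in high cells, which is 4.92 and 5.04 times lower. IGF1 was at 379 and 513 against 374 and 285 CPM and did not pass. PDGFRA, the platelet-derived growth factor receptor of dermal mesenchyme, was lower, at 48.4 and 35 against 103 and 75.3 CPM, with log2 ratios of -1.08 and -1.11. Among collagen-positive cells its straight ratio was -0.85, short of 2-fold.

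The Wnt genes were mostly shared by low and high cells. Of 11 compared, 1 was higher and 0 were lower, with a median log2 ratio of 0.10 and 0.02. RSPO1, a second R-spondin, was the higher gene, at 60.2 CPM (50.9 to 70.8) and 111 CPM (96.7 to 128) in low and 24.8 CPM (20.7 to 29.5) and 35.3 CPM (25.7 to 47.2) in high cells. In cells of at least 4000 UMIs its straight ratio was 0.98, against 1.28 in all. RSPO3 and WIF1 had ratios of -0.46 and -0.10, and of 0.10 and -0.31. RSPO2 had too few UMIs for the comparison and went the other way from RSPO1, with 14 UMIs in straight and 0 in curly low cells against 345 and 24 UMIs in high cells. SFRP1, a secreted Frizzled-related protein, had log2 ratios of opposite sign in the libraries, -0.43 (-0.53 to -0.33) in straight and 1.15 (1.01 to 1.30) in curly cells. The difference between these ratios was not tested.

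For BMP and TGF-beta genes, 0 of 6 compared passed in either direction. SOSTDC1, a secreted inhibitor of BMP and Wnt signals that stands outside that list, was among the 10 lowest, at 118 CPM (104 to 132) and 53.3 CPM (43.3 to 64.9) in low against 624 CPM (603 to 646) and 362 CPM (330 to 397) in high cells. BMP4, a BMP ligand with too few UMIs in the curly library to be compared, was at 65.1 CPM (55.4 to 76) and 32.8 CPM (25.1 to 42.2) in low and 6.64 CPM (4.6 to 9.28) and 5.49 CPM (2.21 to 11.3) in high cells. Low cells of both libraries thus had more BMP4 and less SOSTDC1. INHBA was at 521 and 699 against 438 and 482 CPM and did not pass. For hedgehog and Notch genes, 0 of 5 compared passed, and PTCH1, the hedgehog receptor and target, had log2 ratios of 1.25 (0.93 to 1.58) and 0.85 (0.34 to 1.39). Of 6 retinoid, 4 interferon response and 4 contractile genes compared, 0 passed, and of 14 immediate-early genes 1 was higher, ATF3, a stress response factor, at 282 and 221 against 128 and 98.8 CPM. Among collagen-positive cells ATF3 had ratios of 0.98 and 0.72 and did not pass.

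**Figure D3:**
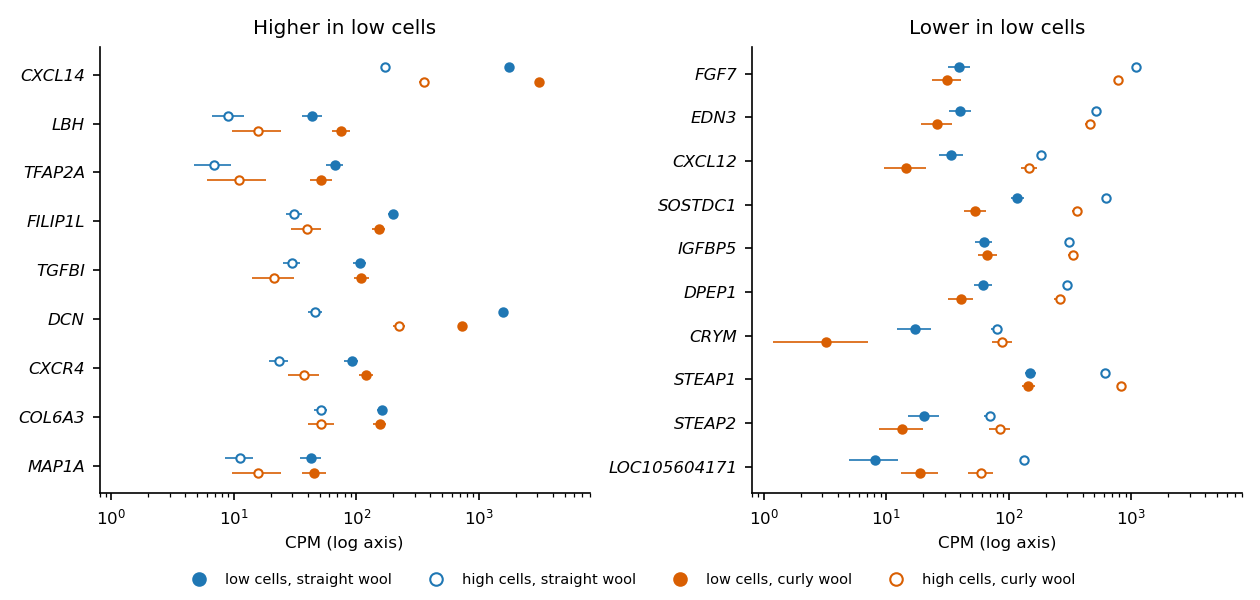
Level in CPM on a log axis of 9 of the 10 genes highest and the 10 lowest in low cells over high cells, with filled points for low cells and open points for high cells of each library and lines for exact 95% Poisson intervals. FGF7, EDN3 and DPEP1 chose the cells, and for CXCL14, DCN, CXCL12 and STEAP1 among the rest the filled points of both libraries lie apart from the open ones.

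Several transcription factors separated the groups, 1 of them in each direction among the 13 papilla genes compared (PRDM1 and EBF1). Of 9 factors compared from the list, 2 were higher and 1 was lower. SOX18 was at 576 CPM (547 to 607) and 329 CPM (303 to 356) in low against 214 CPM (201 to 227) and 99.6 CPM (83 to 119) in high cells, and PRDM1, a repressor found in the papilla, at 59 and 68.9 against 22.1 and 20.4 CPM. Endothelial cells held 112 and 65.7 CPM of PRDM1. EBF1, a factor of mesenchymal and B cells, was lower, at 284 CPM (264 to 306) and 137 CPM (121 to 155) against 804 CPM (779 to 829) and 402 CPM (368 to 439). With a limit of 10 the straight log2 ratio of EBF1 was -0.96. TFAP2A and LBH, a transcription factor and a cofactor outside the list, were among the 10 highest. TFAP2A was at 66.3 and 51.7 against 6.83 and 11 CPM. LBH was at 43.5 and 75.3 against 8.98 and 15.7 CPM. A UMI of TFAP2A was found in 21.6% and 17.8% of low cells and 6.41% and 5.41% of endothelial cells.

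Some genes of the extracellular matrix were higher in low cells, and most did not pass. Of 15 collagens compared, 3 were higher and 0 were lower, and of 21 other matrix genes 4 were higher and 0 were lower. Over all genes compared the shares were 1.34% and 0.85%. The median log2 ratios in straight and curly cells were 0.19 and 0.72 for the collagens and -0.06 and 0.35 for the other matrix genes. FN1, the fibronectin gene, went the other way, with ratios of -1.24 and -0.66. COL3A1, a fibrillar collagen, was at 739.9 and 582 against 302 and 267 CPM, with a curly ratio of 1.12 that was 0.86 at a limit of 2. COL4A1, a basement membrane collagen, was at 132 and 326 against 46.7 and 91 CPM, and COL6A3, a chain of microfibrillar collagen, at 162 and 154 against 51 and 51.8 CPM. COL1A1, the main chain of fibrillar collagen, did not pass, at 772 and 574 against 1171 and 637 CPM. The other matrix genes that passed were DCN, POSTN, LAMB1, a laminin chain, and LOXL1, a collagen and elastin crosslinking enzyme. TGFBI, an adhesion protein outside these lists, was at 106 and 109.8 against 29.7 and 21.2 CPM. DCN had the largest ratio of these in the straight library, 5.11 (4.92 to 5.31), against 1.69 (1.51 to 1.88) in the curly library, and 3.48 and 1.60 among collagen-positive cells. The rule kept LUM under 5 in both groups, so cells rich in that related proteoglycan were not among them.

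Also among the 10 highest were FILIP1L, at 199 and 152 against 31 and 39.2 CPM, and MAP1A, a microtubule-associated protein, at 42.7 and 45.2 against 11.1 and 15.7 CPM. Among the 10 lowest, STEAP1 and STEAP2, which belong to a family of metalloreductases, lay together. STEAP1 was at 149.8 CPM (135 to 166) and 144 CPM (127 to 163) in low and 614 CPM (593 to 636) and 822 CPM (773 to 873) in high cells. STEAP2 was at 20.3 and 13.5 against 70.1 and 83.9 CPM. CRYM, a thyroid hormone binding protein, was at 17.1 and 3.23 against 79.5 and 88.6 CPM, and LOC105604171 at 8.14 and 18.8 against 133 and 58.8 CPM.

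Across the gate the levels of CXCL14 and EBF1 differed by degrees and not at the limit alone. In straight cells with a sum of FGF7, EDN3 and DPEP1 of 0, above 0 to 2.5, 2.5 to 5, 5 to 10, 10 to 20 and 20 or more, CXCL14 was at 2078, 2138, 978, 368, 118 and 92.1 CPM. In curly cells it was at 3630.3, 2286, 2108, 740.4, 114 and 57.2 CPM. EBF1 went the other way, from 140.3 CPM at a sum of 0 to 518 CPM just under the limit, 713 CPM just above it and 850.1 CPM at 20 or more in straight cells. The curly values of EBF1 at these places were 126, 184, 377 and 531 CPM. CXCL12 in curly cells differed mainly at the limit. It was at 14.9, 4.86 and 26.2 CPM in the bins below it and at 134, 132 and 188 CPM in those above. In straight cells the CXCL12 values were 17.6, 31, 63.4, 142, 198 and 197 CPM. STEAP1 and SOSTDC1 had their highest level in the last bin, at 924 and 1853 CPM and at 1113 and 965 CPM. The depth of the cells moved along the same bins, with a median of 3802.5 UMIs at a sum of 0 and 8003 UMIs at 20 or more in straight cells and of 3970 and 5884 UMIs in curly cells, and its part was not tested.

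**Figure D4:**
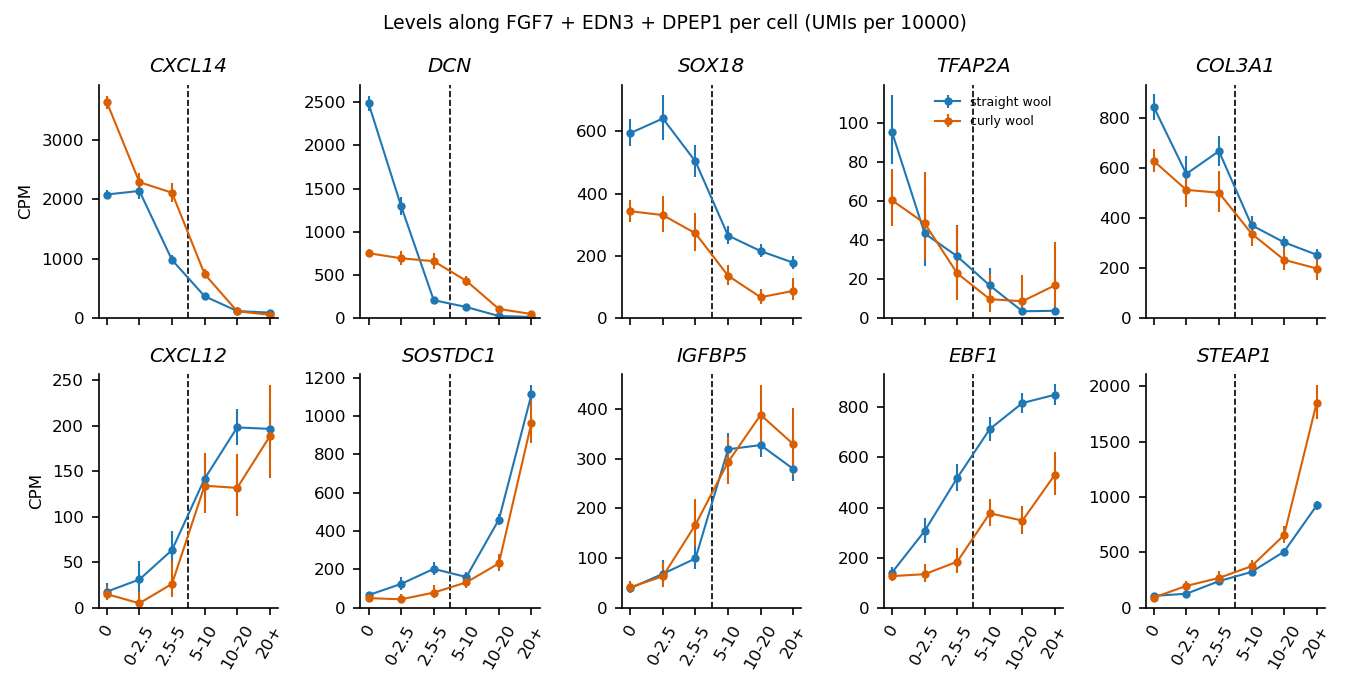
Level in CPM, with exact 95% Poisson intervals, of single genes in gate cells binned by their sum of FGF7, EDN3 and DPEP1 in UMIs per 10000, for straight and curly wool. CXCL14 goes from 2078 and 3630.3 CPM in the first bin to 92.1 and 57.2 CPM in the last, and STEAP1 from 107 and 91.9 to 924 and 1853 CPM.

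Set against all cells outside the gate, the 15 leading genes of low cells were PAPPA2, C13H20orf204, RSPO3, PTGFR, LOC105611014, CACNA1E, SERPINF1, BMP3, PEBP4, MASP1, MC4R, IGF1, CRABP1, SFRP2 and QPRT. RSPO3 and CRABP1 are gate genes, so their place follows from the rule. SFRP2 is a secreted Wnt modulator, BMP3 a ligand of the BMP family and MC4R a melanocortin receptor. BMP3 was at 140 and 96.8 CPM in low cells against 3.31 and 0.658 CPM outside the gate, and MC4R at 75.7 and 118 against 1.87 and 0.43 CPM. In high cells BMP3 was at 91 and 40.8 CPM and MC4R at 170.4 and 151 CPM, so these genes mark gate cells and not the low cells alone.

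The low cells also varied among themselves. After thinning to 2000 UMIs, the variance of a gene over its mean (the Fano factor) had a median of 1.09 in straight and 1.08 in curly low cells over 1049 genes. Genes were ranked by the smaller value of the 2 libraries. MGP, a matrix protein that inhibits calcification, came first at 30.4 and 19.98, before CXCL14 at 14.1 and 13.7. S100A4, a calcium binding protein of fibroblasts, followed at 14.3 and 12.6, and IGFBP3 at 13.3 and 11.4. Some genes ranked lower were higher in 1 library. KRT10 was at 7.73 and 32, above MGP in curly cells, and KRT5 at 6.91 and 15.1. In straight cells LOC101120093 at 13.9 and FOS at 13.7 lay above IGFBP3. For MGP, 1 cell in each library held 32.9% and 31.2% of its UMIs. CXCL14 was spread more widely, with a median of 5.33 and 10.2 UMIs per 10000 per cell, a 90th percentile of 54.6 and 93.4 and a highest cell at 253 and 256.

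The second comparison set curly low cells over straight low cells. Of 4051 genes with at least 100 UMIs in the low cells of both libraries together, 130 (3.21%) were at least 2-fold higher and 128 (3.16%) at least 2-fold lower in curly cells. Of the 130, 106 passed among collagen-positive low cells, 64 in high cells and 43 outside the gate, and of the 128 the numbers were 102, 72 and 33. The median log2 ratio over these genes was -0.03 in low cells, -0.07 in high cells and -0.15 outside the gate. Of the higher genes, 40 have only a LOC number as a name, and 9 of the 10 highest are among them.

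Most papilla genes lay within 2-fold between the libraries, with WIF1 and EBF1 as the exceptions. The label markers had 0 of 5 past 2-fold, with CRABP1 at 3174 CPM (3104 to 3246) in straight and 5629 CPM (5521 to 5737) in curly cells and SOX18 at 576 CPM (547 to 607) and 329 CPM (303 to 356). Of 15 papilla genes compared, 0 were higher and 2 were lower. WIF1 was at 1463 CPM (1415 to 1511) and 568 CPM (534 to 604), a log2 ratio of -1.36 (-1.46 to -1.26), and its UMIs were found in 86.9% and 50.1% of low cells, or 80% and 43.7% after thinning, and in 10.3% and 3.6% of endothelial cells. Among collagen-positive low cells it was at 1666 and 587 CPM. The WIF1 ratio was -0.95 in high cells and -3.01 outside the gate. EBF1 was the other, at 284 and 137 CPM, with a ratio of -1.05 (-1.26 to -0.84) in low cells, or -0.54 at a limit of 2. It was at 804 and 402 CPM in high cells, and its ratio outside the gate was -1.45. The falls of WIF1 and EBF1 were thus not particular to the low cells.

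In the Wnt list, 1 of 12 compared was higher and 2 were lower in curly low cells. SFRP2 was lower beside WIF1, at 58.6 and 25.8 CPM, with a ratio of -1.18 in low cells and -2.74 outside the gate. DKK3, a Dickkopf family member, was higher, at 16.7 and 36.6 CPM. Its ratio was 0.88 among collagen-positive cells against 1.13 in all low cells. RSPO3 was at 999 and 1062 CPM and CTNNB1, which encodes beta-catenin, did not pass. Of 6 insulin-like growth factor genes compared, only IGFBP6, a binding protein, passed, at 52.9 and 14.5 CPM, and of 10 BMP and TGF-beta genes 1 was lower, MSX1, whose log2 ratio of -2.54 became 0.13 without the collagen-poor cells. For hedgehog and Notch genes 0 of 7 passed. CXCL12 was at 33.8 and 14.5 CPM, and PDGFRB, a platelet-derived growth factor receptor, at 15.5 and 37.7 CPM.

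Retinoid genes had 1 of 9 higher and 0 lower. RBP4, the carrier of retinol, was at 110.3 CPM (97.5 to 124) in straight and 429 CPM (400.1 to 460.2) in curly low cells, a log2 ratio of 1.96 (1.76 to 2.17), against 1.18 in high cells and -0.70 outside the gate. CRABP2, another retinoic acid binding protein, was at 453 and 753 CPM and did not pass. PAPPA2, a protease of IGF binding proteins and the first leading gene, was at 19.5 and 95.8 CPM, with a ratio of 2.29 (1.83 to 2.78). APOE, a lipid carrier, was at 402 and 1423 CPM, with ratios of 1.82 in low and 0.89 in high cells. APOE lies outside the naming rule and was chosen after its values were seen.

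Of 15 collagens compared between the libraries, 3 were higher and 0 were lower in curly low cells, with a median log2 ratio of -0.07. COL4A1 was at 132 CPM (118 to 147) and 326 CPM (301 to 353), COL4A2, the partner chain of COL4A1, at 72 CPM (61.8 to 83.5) and 157 CPM (139 to 176), and COL18A1, the precursor of endostatin, at 90.3 CPM (78.9 to 103) and 237 CPM (215 to 259.9). Among collagen-positive low cells the log2 ratios were 1.11, 0.91 and 1.25, so COL4A2 was then short of 2-fold. With a gate minimum of 40 the ratio of COL4A1 was 0.94, and with a limit of 10 for FGF7, EDN3 and DPEP1 that of COL18A1 was 0.74. With means of the levels in single cells the ratios of COL4A1 and COL4A2 were 0.92 and 0.95. In high cells the ratios of COL4A1, COL4A2 and COL18A1 were 0.96, 0.26 and -0.91, against 1.30, 1.12 and 1.39 in low cells. Of 23 other matrix genes, 0 were higher and 3 were lower. FN1, which encodes fibronectin, was at 98.1 CPM (86.1 to 111) and 39.8 CPM (31.3 to 50). The FN1 ratio was -1.30 in low cells, -1.89 in high cells and -2.05 outside the gate. LUM was at 46 and 12.4 CPM under the limit that the rule set, and DCN at 1580.3 and 724 CPM. The DCN ratio of -1.13 (-1.22 to -1.04) rested on the collagen-poor cells and was 0.42 (0.30 to 0.55) without them.

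The interferon response genes had the largest median ratio of the lists compared. All 4 compared were higher in curly low cells, with a median log2 ratio of 4.45, against 2.61 in high cells and 3.64 outside the gate. IFI6 was at 307 CPM (285 to 329.6) in straight and 15381 CPM (15203 to 15560) in curly low cells, and its log2 ratio was 5.65 in low cells, 4.86 in high cells and 7.45 outside the gate. ISG15, a ubiquitin-like protein, was at 11.8 and 312 CPM, and MX1, an antiviral GTPase, at 4.48 and 81.2 CPM. A UMI of IFI6 was present in 61.9% and 99% of low cells, or 44.1% and 99.4% after thinning, and 30.8% and 100% of endothelial cells. The difference was thus present in the other groups of cells too.

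Keratins of the inner root sheath followed the libraries as well. All 3 compared were higher in curly low cells, with a median log2 ratio of 1.77 in low cells, 1.90 in high cells and 1.69 outside the gate. The 5 genes of this list in the table summed to 244 and 704 CPM in low, 196 and 512 CPM in endothelial cells and 1078 and 3131 CPM outside the gate, and 0 were without a UMI. KRT71 was at 76.9 and 261 CPM in low and 67 and 158 CPM in endothelial cells. Endothelial cells, which should lack these keratins, thus held them within 2-fold of the low cells, and no expression by the low cells is read from them.

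**Figure D5:**
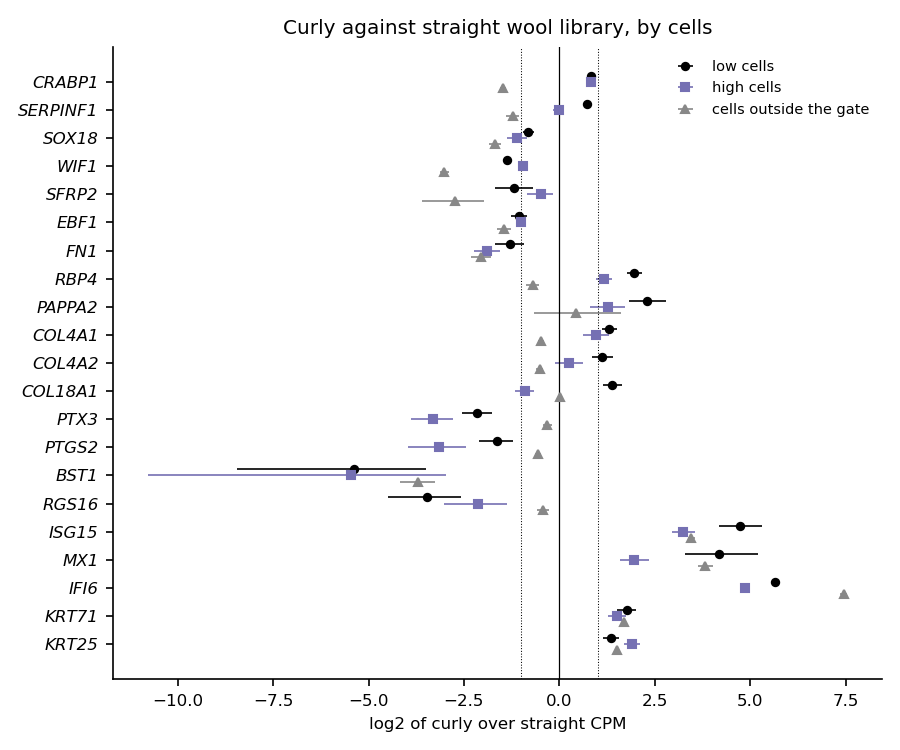
Log2 ratio of curly over straight wool in low cells for 21 named genes, beside the same ratio in high cells and in cells outside the gate, with exact 95% intervals from the split of UMIs, a solid line at equal CPM and dotted lines at 2-fold. IFI6 lies at 5.65 in low and 4.86 in high cells, RBP4 at 1.96 and 1.18, and WIF1 at -1.36 and -0.95.

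Immediate-early and early response genes leaned the other way. Of 18 compared, 0 were higher and 6 were lower in curly low cells, with a median log2 ratio of -0.37 in low and -0.78 in high cells. PTX3, a pentraxin of inflammation, was at 150.2 CPM (135 to 166) and 33.9 CPM (26 to 43.4), and PTGS2, which makes prostaglandins, at 92.4 CPM (80.8 to 105) and 29.6 CPM (22.3 to 38.5). At a limit of 2 the ratio of PTGS2 was -0.92 in place of -1.64. NR4A1, a nuclear receptor, was at 137 and 55.4 CPM, and IER3, BTG2 and TNFAIP6 were the others. FOS and JUN, parts of the AP-1 factor, did not pass, at 1704 and 1567 CPM and at 2221 and 1977 CPM.

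Of the named genes lowest in curly low cells, some were spread over the cells and some were not. BST1, an ectoenzyme of NAD metabolism, was at 44.8 CPM (36.8 to 54) and 1.08 CPM (0.13 to 3.89), with a UMI in 22.3% and 0.489% of cells, and had log2 ratios of -5.38 (-8.44 to -3.49) in low, -5.47 (-10.78 to -2.97) in high cells and -3.70 outside the gate. RGS16, a regulator of G protein signalling, was at 65.1 and 5.92 CPM and SPARCL1, a matrix glycoprotein, at 54.5 and 6.99 CPM. CXCL9, an interferon-induced chemokine, had 105 UMIs in 5 straight cells, 1 of these UMIs in collagen-positive cells, and none in curly cells. Of the 108 SRGN UMIs in straight low cells, 57.4% were in 1 cell, and for LOC101104728 the share was 81.8%. The leukocyte list, to which SRGN belongs, summed to 102 and 17.2 CPM over its 6 genes in low cells, with PTPRC at 0 in curly cells. FABP7 had a ratio of -3.79, or -2.18 among collagen-positive low cells. Among all genes past 2-fold, 1 cell held at least 50% of the UMIs for 3 of the 130 higher and 5 of the 128 lower genes.

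Contractile genes of the dermal sheath differed between the libraries, most of them less so without the collagen-poor cells. Of 6 compared, 5 were at least 2-fold higher in curly low cells and 0 were lower, with a median log2 ratio of 1.38 in low and 1.29 outside the gate. ACTA2, smooth muscle actin, was at 7.33 and 95.2 CPM, and 1 curly cell held 48.6% of its UMIs. Among collagen-positive low cells TAGLN, MYL9 and MYLK no longer passed, with log2 ratios of 0.09, 0.62 and -0.12 against 1.54, 1.21 and 1.16 in all low cells. The list summed to 330.1 and 769 CPM in low, 382 and 436 CPM in collagen-positive low and 58.5 and 5174 CPM in collagen-poor low cells. In the cells at or above the LUM limit it summed to 2338 and 6856 CPM. ACTA1 was at 0 in straight and COL11A1 at 0 in curly low cells.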

How the data were processed

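Single-cell RNA-seq was analysed for 1 library of straight and 1 library of curly wool. Per the submitters' processing notes reads were counted with Cell Ranger 3.0.2, and the deposited table of 18161 genes in 14037 cells was filtered by the authors, while the design text of the series counts 15830 cells. The cells beyond the table were not analysed here. The authors deposited normalized values on a natural log scale, taken of UMIs per 10000 in a cell after adding 1, a unit that was read from the values. UMIs were recovered with a step per cell, and 100% of values above 0 were whole within 0.01 (largest deviation 0.0038). They were summed per group of cells and divided by all UMIs of the group.

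The cells, gene lists and limits were chosen with earlier results of these data known. Intervals are exact Poisson for CPM, Clopper-Pearson for shares and binomial splits for log2 ratios. Ratios required 100 UMIs over both sides, and a difference was counted from 2-fold. Genes were named if they belonged to the rule, the label markers or the lists, if they were among the 10 largest or smallest ratios of a comparison, or if they were among the 15 leading genes. A few genes named by these criteria were left out of the text. Doublets were not called, and alternatives without cells of 3 or more epithelial genes or over 20000 UMIs were run instead. The calculations were checked on simulated counts. The tools were pandas 2.3.3, matplotlib 3.10.9, scipy 1.17.1 and numpy 2.4.6 under Python 3.11.15.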

Additional observations from a re-analysis of the deposited data

Results flagged for a closer look

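For 2 genes the ratio of low over high cells was at least 2-fold in 1 library and at least 1.5-fold the opposite way in the other. COL18A1, a basement membrane collagen, had a log2 ratio of -1.35 (-1.56 to -1.14) in straight and 0.95 (0.69 to 1.23) in curly cells, with 90.3 against 230 CPM and 237 against 122 CPM. FST, which encodes the activin inhibitor follistatin, had -1.11 (-1.21 to -1.01) and 0.77 (0.60 to 0.94), with 396 against 854 CPM and 537 against 315 CPM. With 1 library per wool type the difference between the ratios was not tested. Of the 3058 genes compared, 1090 had opposite signs in the libraries, 232 were at least 2-fold in either library, 25 of those had opposite signs, and 0 were at least 2-fold in opposite ways.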

How the results depend on the processing

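No paired analysis was possible because each wool type has 1 library. With a limit of 2 in place of 5 for FGF7, EDN3 and DPEP1, low cells were 27.7% of straight and 49.8% of curly gate cells, and with a limit of 10 they were 55.9% and 79.6%. Without the LUM limit the straight share was 47.2%. Cells of at least 4000 UMIs left 279 straight and 233 curly low cells, 31.5% and 57.7% of the gate. The curly share was thus above the straight share at each of these limits. With a limit of 10, 17 genes were at least 2-fold lower in low than in high cells and 222 were lower in curly low cells. A minimum of 20 in place of 100 UMIs gave 169 higher and 73 lower genes among 7939 for low over high cells, and 449 higher and 638 lower among 9325 for curly over straight cells. A gate minimum of 40 shared 9 of the 15 leading genes. With collagen-positive low cells only, an alternative chosen after seeing the data, the curly over straight log2 ratio became 0.42 for DCN and 0.13 for MSX1, both reversed. The other 71 counts and shares moved by at most 1.5 times or stayed within their intervals. For a chosen list of genes, and not for all genes that passed, 88 ratios past 2-fold were followed over 10 settings. Of the 880 values this gave, 835 stayed past 2-fold in the same direction. Among these settings, scaling to the median ratio and leaving out cells over 20000 UMIs changed little, with largest log2 shifts of 0.08 and 0.26. Among ratios not given above that came short of 2-fold were the curly low over high ratios of SERPINF1 at a limit of 2, 0.88, and of HHIP among collagen-positive cells, -0.97, and with per-cell means those of PDGFRA, -0.42 in straight and -0.57 in curly cells. Depth limits genes such as CORIN, NOG and SOX2, which lie close to the level of 3 counts.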

Other observations

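Genes of cholesterol synthesis were higher in low than in high cells. FDPS, ACAT2, MSMO1 and MVD, which encode enzymes of this pathway, and SREBF2, its transcription factor, were chosen after their values were seen and passed 2-fold in both libraries. FDPS was at 157 CPM (142 to 174) and 116 CPM (101 to 132) in low and 62.7 and 54.9 CPM in high cells, and MVD at 58.2 CPM (49 to 68.6) and 63.5 CPM (52.6 to 76) against 28.5 and 22 CPM. MSMO1 had log2 ratios of 1.04 and 1.22, and SREBF2 of 1.14 and 1.03. Among collagen-positive cells the straight ratios of ACAT2, MVD and SREBF2 were 0.73, 0.98 and 0.87, so these 3 no longer passed, and at a limit of 2 the curly ratios of FDPS and MSMO1 were 0.53 and 0.74. In endothelial cells FDPS was at 61.6 and 48.9 CPM. APOE, which carries cholesterol between cells, was at 402 and 1423 CPM in low and 144 and 265 CPM in high cells.

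The complement proteases C1R and C1S and the cell surface proteoglycan GPC3, also chosen after their values were seen, were lower in low cells. C1S was at 54.5 CPM (45.7 to 64.6) and 80.2 CPM (67.8 to 94.1) against 194 and 221 CPM, C1R at 127 and 161 against 287 and 333 CPM, and GPC3 at 86.7 and 42.5 against 202 and 139.6 CPM. Among collagen-positive cells the straight ratios of C1R and GPC3 were -0.97 and -0.98, short of 2-fold. STMN1, a microtubule regulator of dividing cells, was at 315 and 116 against 108 and 53.3 CPM, with ratios of 0.77 and 0.88 among collagen-positive cells, so that it did not pass there.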
